A study of Mus musculus with 34 samples.

Results

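Serpina12 and 9 other serpin A genes expressed in liver were followed across the RNA libraries of mouse livers labelled as Setd8 knockout and as wild type. The 10 genes were chosen by name: Serpina12, the 5 copies Serpina1a to Serpina1e, Serpina3k, Serpina3n, Serpina6 and Serpina10. Serpina12 was included because its mRNA differed widely between the groups in these libraries, so its mRNA difference is described here and not tested. The other 9 were included as family members. All 10 had a row among the 37583 genes of the mRNA tables, and all 10 were among the 16813 genes tested.

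The knockout animals, called KO here, carried the genotype Setd8lox/lox-Alb-Cre, and their controls, called WT, were labelled Wild type. Both were F1 (C57Bl6/CBA) mice of 45 days, fed a standard chow diet. Setd8, also called Kmt5a or PR-Set7, encodes the methyltransferase that places a single methyl group on lysine 20 of histone H4. Its floxed exon is removed by Cre under the albumin promoter, which is active in hepatocytes. Cells without Cre keep the gene, and which liver cells those are was not measured here. Poly(A) mRNA was sequenced in 3 KO and 3 WT libraries. Newly made RNA was sequenced in 1 KO and 1 WT library after an injection of 25 mg per kg ethynyl uridine (EU) 30 min before death, and in 1 KO and 1 WT library of nuclei after a run-on of 3 min with bromouridine triphosphate (Br). The other 24 of the 34 samples, chromatin and inputs, were not analysed here.

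Serpins are proteins that trap a protease by offering it an exposed loop, the reactive centre loop, as bait. Once the loop is cut, the serpin changes shape and holds the protease in a dead complex. Hepatocytes secrete most serpins of clade A into plasma, where they restrain proteases of neutrophils and of blood clotting, and some members have lost the inhibitory function and carry hormones instead. Their genes lie side by side in 1 cluster, on chromosome 12 in the mouse, and the mouse has several copies of the gene for alpha-1 antitrypsin where humans have a single one.

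The scaled mRNA values summed to between 18069344 and 25820906 per library. EU libraries held 5583983 (KO) and 10833287 (WT) reads, and Br libraries 2317840 (KO) and 3156055 (WT). WT replicate 3 stood apart, with 20077 genes above 0 against 24497 to 26247 in the other 5 mRNA libraries. Setd8 mRNA itself (Kmt5a in the annotation) had scaled values of 1199, 1040 and 1075 in the libraries labelled KO, against 593, 615 and 1076 in WT, a log2 difference of 0.59 that did not pass (limma adjusted p = 0.244). It passed as a higher level in KO without WT replicate 3 (0.87, limma adjusted p = 0.0198) and with array weights (0.76, limma adjusted p = 0.000312), with adjusted p of up to 0.512 across the alternatives. A count over the whole gene tests the loss of 1 exon only in part, so the groups are called by their labels. The labels number the replicates without saying that they are separate animals, so a p-value here weighs a difference against the scatter of these 6 libraries only, part of which may be technical. Across all genes tested, 227 (1.35%) were higher and 228 (1.36%) lower in KO at an adjusted p under 0.05, in all 2.71% of genes tested.

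Serpina12 encodes vaspin, an inhibitor of the protease kallikrein 7 that was first described in visceral fat and is tied to insulin sensitivity. Its mRNA had scaled values of 52, 96 and 216 in KO livers, against 3904, 3044 and 3047 in WT livers. Every KO library lay far below every WT library, and the lowest WT value was 14.1 times the highest KO value. The means were 121 ± 84.9 in KO and 3332 ± 496 in WT (SD, n = 3 each). On the log2 scale KO lay at -5.00 relative to WT (SE 0.45), or 31.9-fold lower. With any 1 library left out the log2 difference stayed between -5.53 and -4.51. In KO livers the gene still gave reads in each library, at 0.0003% to 0.0011% of the library total against 0.0118% to 0.0195% in WT. In bulk liver, fewer cells that express a gene and less RNA per cell cannot be told apart.

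Nascent Serpina12 RNA was sparse and also lower in KO. EU-labelled RNA gave 0 reads in KO and 31 in WT. After centring on the median gene, and with a floor of 3 reads for the count of 0, this was at least 5.25-fold lower if the 31 WT reads are taken as exact. With the counting error of both libraries the 95% interval reached up to -2.01 on the log2 scale, a smaller difference. Br run-on RNA gave 18 reads in KO and 61 in WT, or -1.31 on the centred log2 scale, and counting error alone allows -2.16 to -0.53 at 95%. With 1 library per group no test was possible, and such intervals cover counting error only. The Br ratio, 2.48-fold lower, was thus smaller than the 31.9-fold difference in mRNA.

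The longest annotated transcript of Serpina12 shares no stretch of 50 bases with a transcript of another gene in GENCODE M21. Introns and inexact matches were not searched. The RefSeq promoter table holds the bases before its annotated start, on the minus strand at chr12:104044444-104044693 of GRCm38.p6. They are shown because this gene carries the widest difference. Searched on both strands, the window from 250 bases before to 50 after the start holds none of 5 short motifs. They were GTTAAT, its longer form GTTAATATTCAC, TGTTTGC of forkhead (FOXA) sites, AGGTCA of nuclear receptor sites and TTCNNNGAA of STAT sites. The longer form was taken from the Serpina1 promoters themselves. GTTAAT lies inside GTTAATATTCAC, so these matches overlap. The absence says only that these letters are not in this window.
Serpina12: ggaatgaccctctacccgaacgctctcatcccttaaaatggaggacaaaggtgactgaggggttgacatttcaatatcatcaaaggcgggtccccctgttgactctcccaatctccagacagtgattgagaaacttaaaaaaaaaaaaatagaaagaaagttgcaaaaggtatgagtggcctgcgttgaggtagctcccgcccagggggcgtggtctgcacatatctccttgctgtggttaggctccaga

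**Figure D1:**
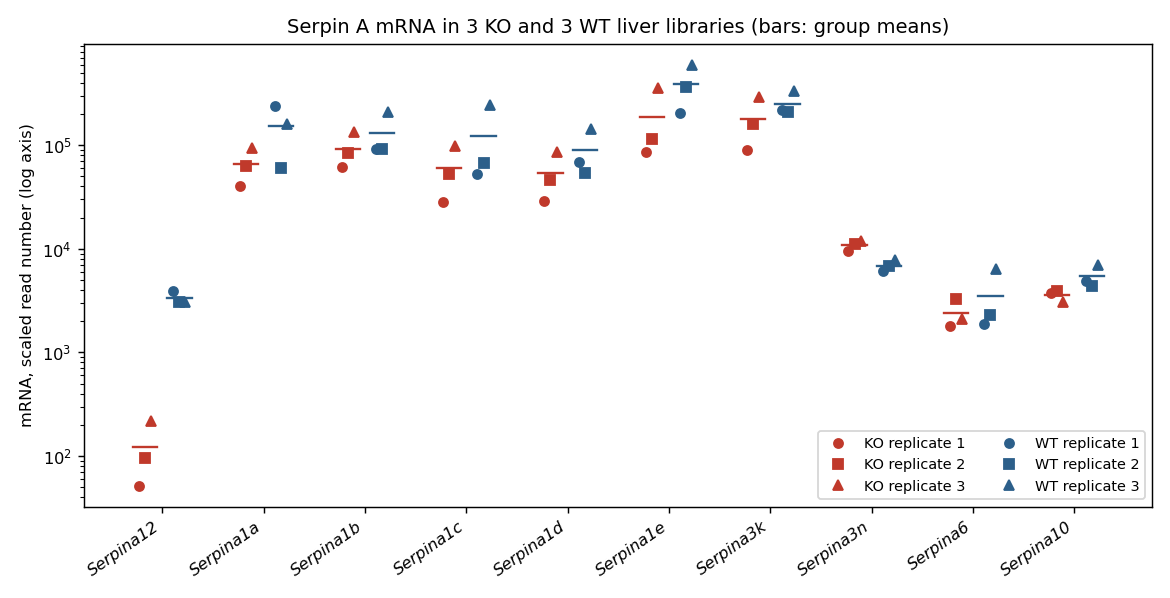
Scaled mRNA read number (log axis) of the 10 serpin A genes, with KO libraries in red left of WT libraries in blue, a symbol per replicate and a bar at each group mean. Serpina12 at 52 to 216 in KO lies apart from 3044 to 3904 in WT, while the groups of the Serpina1 copies overlap.

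Serpina1a to Serpina1e are the mouse copies of the gene for alpha-1 antitrypsin, the main plasma inhibitor of neutrophil elastase in humans. The copies differ from each other in the loop that meets the protease, and their targets were not tested. Their mRNA was lower on average in KO livers, but the groups overlapped for each of the 5 copies and none passed the test. Serpina1e, the most abundant copy per kilobase, had 86858, 115709 and 357541 in KO, against 203360, 365126 and 593933 in WT (log2 difference -1.21, SE 0.58, limma adjusted p = 0.296). Serpina1a had 40353, 63546 and 94015 in KO, against 240380, 60888 and 161133 in WT (-1.10, SE 0.52, limma adjusted p = 0.29). One WT library, replicate 2, lay below 2 of the 3 KO libraries for this copy. Serpina1b, Serpina1c and Serpina1d differed by -0.45, -0.85 and -0.74, with limma adjusted p between 0.436 and 0.595. Added over the 5 copies, the values were 246076, 361802 and 767730 in KO livers, against 656729, 639111 and 1353639 in WT livers, a log2 difference of -1.02. KO replicate 3 alone lay above 2 WT libraries.

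Spread within a group was wide for these copies. The highest KO library held 2.14 to 4.12 times the lowest, and the highest WT library 2.27 to 4.73 times the lowest. KO replicate 3 was the highest KO library for all 5 copies, for Serpina3k and for Serpina12. WT replicate 3 was the highest WT library for every copy other than Serpina1a. Without WT replicate 3 the log2 difference was -0.06 for Serpina1b, -0.17 for Serpina1c and -0.34 for Serpina1d, while Serpina1a kept -0.96 and Serpina1e -0.83.

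Reads of the copies are hard to tell apart. Their coding sequences are 96.3% to 98.5% identical, against 59.0% to 60.6% between Serpina12 and a copy. Of all stretches of 50 bases in its longest transcript, Serpina1c shared 74.2% with another gene, Serpina1a 67.4%, Serpina1d 50.9%, Serpina1b 35.8% and Serpina1e 35.6%. The split between copies therefore depends on how the authors' counting placed shared reads, and the 5-copy sum removes only the part of it that lies between the copies. In the alignment of the 5 coding sequences 155 of 1308 positions differ or are missing in a copy. The window of 60 bases with the most differences, 18 of them, ends 79 bases before the end of the coding sequence and covers the part of the reactive centre loop that meets the protease. It is shown because the copies are best separated there. Capitals mark the positions that differ between copies, in transcripts of GENCODE M21.
Serpina1a: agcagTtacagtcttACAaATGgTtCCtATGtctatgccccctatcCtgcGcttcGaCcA
Serpina1b: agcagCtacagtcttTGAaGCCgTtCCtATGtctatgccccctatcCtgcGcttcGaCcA
Serpina1c: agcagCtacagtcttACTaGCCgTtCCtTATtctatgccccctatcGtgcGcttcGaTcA
Serpina1d: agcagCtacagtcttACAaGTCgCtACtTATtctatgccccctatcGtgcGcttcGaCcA
Serpina1e: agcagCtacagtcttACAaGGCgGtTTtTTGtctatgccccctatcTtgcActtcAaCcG

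The promoters of the copies are also alike in sequence. The stretch GTTAATATTCAC was read from the RefSeq windows of these copies, so its presence in all 5 was given in advance. It is found in 5 of 32851 promoter windows, 0.0152%, all 5 of them these copies. The shorter GTTAAT occurs in 7.1% of all windows and TGTTTGC in 5.07%, and both occur in all 5 copies. The 76 bases around them, which are identical at 69 to 74 positions between any pair of copies, are shown because the copies differed in the same direction in nascent RNA. Capitals mark TGTTTGC and GTTAATATTCAC. The longer match begins 21, 26, 27, 16 and 78 bases before the annotated start of Serpina1a to Serpina1e, so the annotated start of Serpina1e lies farther downstream than the others. All are on the minus strand of GRCm38.p6, at chr12:103863625-103863700, chr12:103738200-103738275, chr12:103904962-103905037, chr12:103773634-103773709 and chr12:103956960-103957035 in the order shown. A match is a description and does not show that a factor binds.
Serpina1a: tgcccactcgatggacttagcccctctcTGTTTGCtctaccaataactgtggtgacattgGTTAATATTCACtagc
Serpina1b: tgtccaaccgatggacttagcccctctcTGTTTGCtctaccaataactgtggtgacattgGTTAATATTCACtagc
Serpina1c: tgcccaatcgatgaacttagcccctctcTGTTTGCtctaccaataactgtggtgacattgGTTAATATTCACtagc
Serpina1d: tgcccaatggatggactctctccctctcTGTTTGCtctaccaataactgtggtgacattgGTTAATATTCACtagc
Serpina1e: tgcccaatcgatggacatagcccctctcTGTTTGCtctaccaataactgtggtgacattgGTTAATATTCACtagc

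Nascent RNA of each copy was lower in KO than the median gene by both methods. In EU, Serpina1a gave 5911 reads in KO and 35942 in WT, or -1.63 on the centred log2 scale (95% interval from counting -1.67 to -1.59). In Br it gave 1106 reads in KO and 2282 in WT, a ratio of -0.60 (-0.70 to -0.49). The 5 copies together gave 16010 EU reads in KO and 93585 in WT (-1.57, interval -1.60 to -1.55), and 4111 Br reads in KO and 8398 in WT (-0.58, -0.64 to -0.53). Serpina1e was the copy with the lowest EU ratio, -2.48 from 668 reads in KO and 7339 in WT, and with the Br ratio nearest to 0, -0.19 from 797 and 1243 reads (KO and WT). The methods thus gave the copies a different order, which also holds for Serpina1b, at -1.29 in EU, the least negative of the 5, and -0.82 in Br, the most negative.

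The copies had different shares in mRNA and in nascent RNA. Serpina1e made up 35.3%, 32.0% and 46.6% of the 5-copy mRNA sum in KO livers, against 31.0%, 57.1% and 43.9% in WT livers. In EU its share was 4.2% in KO and 7.8% in WT, and in Br 19.4% in KO and 14.8% in WT. Serpina1a showed the reverse, with 12.2% to 17.6% of mRNA in KO and 9.5% to 36.6% in WT, but 36.9% (KO) and 38.4% (WT) of EU reads and 26.9% (KO) and 27.2% (WT) of Br reads. The highest mRNA share of Serpina1a, 36.6%, was in WT replicate 1, where the other WT libraries held 9.5% and 11.9%. These shares rest on the placement of shared reads.

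**Figure D2:**
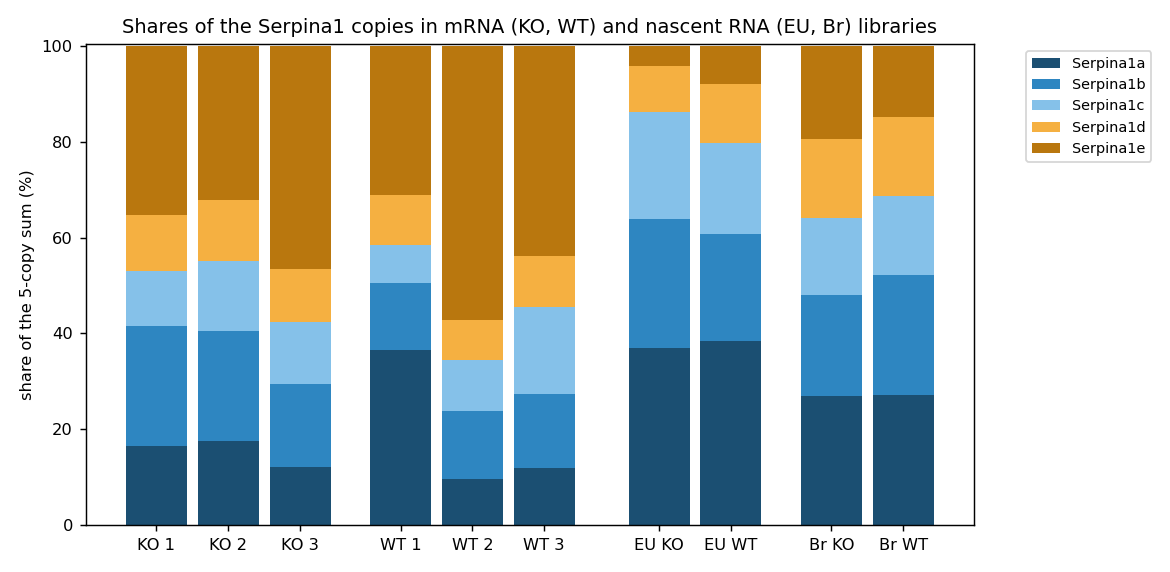
Share (%) of each Serpina1 copy in the sum of the 5 copies, for the mRNA libraries of KO and WT livers by replicate and for the EU and Br libraries, KO left of WT. Serpina1e takes 31.0% to 57.1% of mRNA but 4.2% to 19.4% of nascent RNA.

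Serpina3k encodes contrapsin, an abundant plasma inhibitor of trypsin-like proteases. Its mRNA had 89798, 160864 and 290888 in KO livers, against 218005, 207605 and 330525 in WT livers, a log2 difference of -0.61 (SE 0.43) that did not pass (limma adjusted p = 0.48). KO replicate 3 lay above 2 of the WT libraries. Its nascent RNA was lower in KO, with 13037 EU reads in KO and 61120 in WT (-1.25, interval -1.28 to -1.23), and 1318 Br reads in KO and 2672 in WT (-0.57, -0.67 to -0.47). Serpina3k and its neighbour Serpina3m share an annotated start, and 14.0% of the 50-base stretches of Serpina3k occur in other transcripts, most of them in Serpina3m. The sum of both genes gave the same picture, at -0.65 in mRNA, -1.40 in EU and -0.67 in Br.

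Serpina3n, an acute phase inhibitor of granzyme B and the main mouse counterpart of human alpha-1 antichymotrypsin, was the only member with a higher mRNA in KO. It had 9632, 11135 and 11922 in KO livers, against 6128, 6793 and 7739 in WT livers. All KO libraries lay above all WT libraries, and spread within each group was small, at 1.24-fold in KO and 1.26-fold in WT. The log2 difference of 0.66 (SE 0.20) did not pass over all genes (limma adjusted p = 0.114). It passed without WT replicate 3 (0.75, limma adjusted p = 0.0469) and with DESeq2 on re-estimated reads (0.66, DESeq2 adjusted p = 0.0105), with adjusted p from 0.000419 to 0.396 across the alternatives. These 2 settings called 1666 and 1804 of the 16813 genes tested. Nascent RNA went the other way, with 512 EU reads in KO and 3716 in WT (-1.88, interval -2.02 to -1.75) and 458 Br reads in KO and 908 in WT (-0.54, -0.70 to -0.37). Of its 50-base stretches 6.9% occur in other transcripts.

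Serpina6 encodes corticosteroid-binding globulin, which carries glucocorticoids in plasma and inhibits no protease. Its mRNA had 1781, 3261 and 2096 in KO livers, against 1887, 2297 and 6327 in WT livers, and the groups overlapped (log2 difference -0.39, SE 0.45, limma adjusted p = 0.694). The WT value of 6327 was in replicate 3. Without that library the sign turned, to 0.14 (limma adjusted p = 0.758, with adjusted p from 0.15 to 0.886 across the alternatives). EU RNA was higher in KO at 836 reads, against 1083 in the deeper WT library (0.60, interval 0.47 to 0.73), while Br RNA was lower, with 57 reads in KO and 132 in WT (-0.76, -1.24 to -0.30).

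Serpina10 encodes the protein Z-dependent inhibitor of clotting factor X in its active form. It had 3758, 3887 and 3100 in KO livers, against 4927, 4358 and 7030 in WT livers. All KO libraries lay below all WT libraries by a narrow gap, and the log2 difference of -0.58 (SE 0.23) did not pass (limma adjusted p = 0.214). As for Serpina6, its nascent RNA differed between methods, with 936 EU reads in KO and 1609 in WT (0.19, interval 0.08 to 0.31) and 105 Br reads in KO and 275 in WT (-0.94, -1.28 to -0.61). Serpina6 shares no 50-base stretch with another transcript and Serpina10 shares 1.88%.

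Over the 9 members other than Serpina12, 0 of 9 passed in mRNA (limma), where 2.71% of all genes did. An unadjusted p under 0.05 was found for 2 of the 9, as for 20.0% of all genes. On re-estimated reads edgeR called 0 of the 9, beside 2.86% of all genes, and DESeq2 called 1, Serpina3n, beside 10.7%. The fitted difference was negative for 8 of the 9, beside 49.8% of all genes, with a median of -0.61 against 0.0023 over all genes tested. These 9 are not separate observations, since the Serpina1 copies share sequence. The groups did not overlap for 2 of the 9, where 26.0% of all genes did not overlap: Serpina3n, above WT as 13.2% of genes were, and Serpina10, below WT as 12.8% were. Together the 10 members took 1.94%, 2.94% and 5.35% of the KO library totals, against 4.44%, 4.21% and 6.62% of the WT totals.

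In nascent RNA 8 of the 10 members were at least 2-fold lower in KO by EU, beside 23.2% of the genes with at least 20 EU reads, and their median centred log2 ratio was -1.48. In Br 1 of the 10, Serpina12, was at least 2-fold lower, beside 7.01% of genes, and the median was -0.61. All 10 lay below the median gene in Br, beside 50.0% of genes by construction. In both methods together 8 of 10 lay below it, beside 28.7% of genes. Serpina6 and Serpina10 were the exceptions, through EU. Both methods have 1 library per group, and the EU library of KO was shallower than that of WT. The members are not separate observations, since the Serpina1 copies share sequence and Serpina12 was chosen for its mRNA difference.

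**Figure D3:**
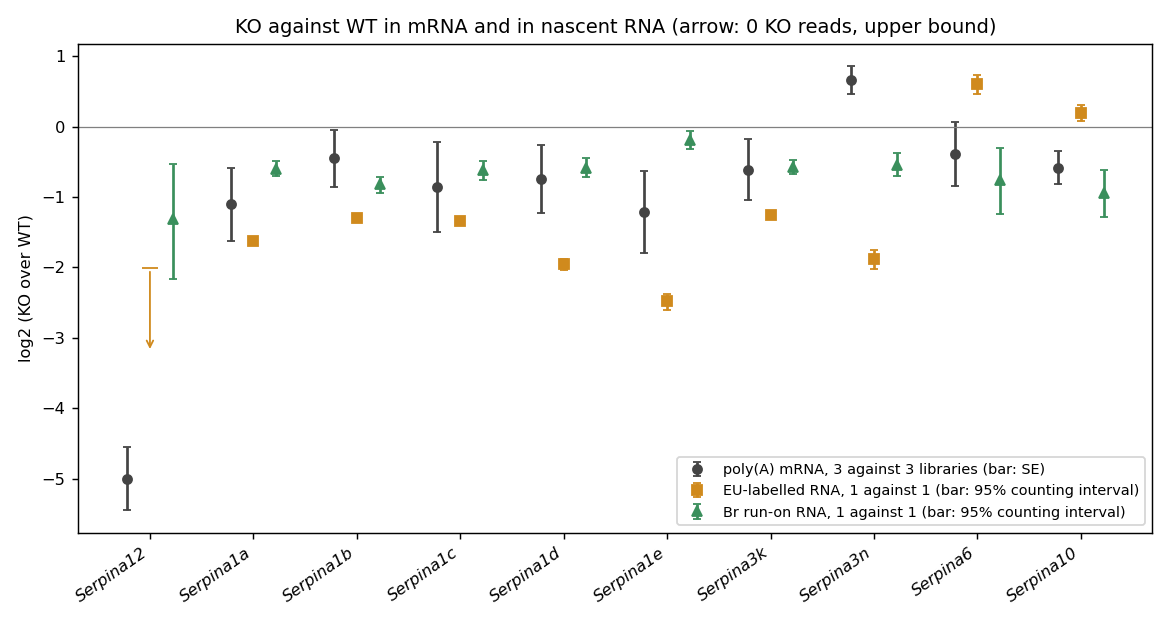
Log2 of KO over WT for the 10 members in mRNA (circles, bars SE, 3 KO and 3 WT libraries) and, centred on the median gene, in EU (squares) and Br (triangles) nascent RNA with 95% counting intervals, 1 library per group. The arrow marks the upper bound of -2.01 for Serpina12 in EU, where KO had 0 reads. Serpina3n lies above 0 in mRNA at 0.66 and below 0 in both nascent methods.

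Levels per kilobase of exon placed the members over a wide range, with gene lengths from GENCODE M21. In KO livers Serpina1e came first with a mean of 115462 scaled reads per kilobase, followed by Serpina3k (87757), Serpina1c (43876), Serpina1d (38377), Serpina1b (38364) and Serpina1a (36011). In WT livers the order was Serpina1e (239625), Serpina3k (122530), Serpina1c (89584), Serpina1a (84134), Serpina1d (63756) and Serpina1b (54142). Neighbours in this upper part overlapped between libraries, so their order is not firm. A wide gap separated them from Serpina3n, with 5279 in KO and 3337 in WT.

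Serpina6 had a mean level of 1351 per kilobase in KO and 1990 in WT, and Serpina10 had 1024 in KO and 1555 in WT. Their libraries overlapped in both groups. Serpina12 was last in both, with 32.9 per kilobase in KO (14.1 to 58.5) and 903 in WT (825 to 1058). In WT its highest library lay below the lowest of Serpina10, at 1246, and in KO it lay below the lowest of Serpina10 at 886.

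Along the chromosome, 57 genes with a row start within 1 Mb of Serpina12 in GENCODE M21, used here only for gene order and distance, and 40 were tested. Leaving aside Serpina12, whose difference is only described, 1 of the tested genes passed, beside 2.71% of all genes. It was Ifi27l2b, an interferon-inducible gene 587.2 kb away, with 937, 708 and 326 in KO livers against 146, 50 and 49 in WT livers, 8.34-fold higher (limma adjusted p = 0.0272). This call was lost without WT replicate 2 (limma adjusted p = 0.107), KO replicate 1 (0.0952) or KO replicate 2 (0.144). Of the 26 other serpin A genes tested there, 14 had a lower fitted value, with a median of -0.29, and of the 13 remaining genes 7 had, with a median of -0.13. Genes were sorted by symbol only. The 13 thus include the pseudogene Gm8893, which starts between Serpina1d and Serpina1b. It differed by 0.11 in mRNA (limma adjusted p = 0.905), by -2.19 in EU and by -0.69 in Br.

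The genes next to Serpina12 differed from each other. On one side Serpina9, 30.7 kb away and known as a serpin of germinal centre B cells, had 23, 54 and 28 in KO against 90, 62 and 205 in WT (log2 difference -1.65, limma adjusted p = 0.129). Its EU RNA went the other way, with 226 reads in KO and 90 in WT (2.30, interval 1.95 to 2.67), and Br gave 7 reads in KO and 12 in WT. Beyond it Serpina11 differed by 0.38 (limma adjusted p = 0.613), with -0.72 in EU and -0.02 in Br. On the other side the pseudogene Serpina4-ps1, 36.2 kb away, had 56, 218 and 1262 in KO against 1247, 2929 and 13159 in WT (-3.86, limma adjusted p = 0.117), with 1 KO library inside the WT range. Leaving out KO replicate 1 gave -2.79 and leaving out KO replicate 3 gave -5.02. The difference passed with a replicate block (limma adjusted p = 0.000523) and with array weights (0.0166), with adjusted p of up to 0.454 across the alternatives. The block called 1014 and array weights 8410 of the 16813 genes tested. Nascent RNA of Serpina4-ps1 was lower too, at -1.14 in EU and -2.64 in Br. Serpina5, the protein C inhibitor, 56.7 kb away, had 6, 6 and 4 in KO against 13, 20 and 13 in WT (-1.36, limma adjusted p = 0.25). It passed with array weights (-1.55, limma adjusted p = 0.004), a setting that called 8410 of the 16813 genes tested. Across the alternatives its adjusted p ranged from 0.004 to 0.534. Its EU reads were 1 in KO and 84 in WT, and its Br reads 0 in KO and 51 in WT.

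A list of 16 serpin A genes outside the members left out the pseudogenes Serpina3d-ps, Serpina3e-ps and Serpina3l-ps of the cluster, which differed by 0.20, 0.10 and 0.88 and did not pass (limma adjusted p = 0.707 to 0.94). Of the 15 listed genes that were tested 0 passed by limma or edgeR. An unadjusted limma p under 0.05 was found for 3, beside 20.0% of all genes. DESeq2 called 2, Serpina7 and Serpina9, beside 10.7% of all genes. The median of the 15 was 0.18. The largest positive difference was in Serpina7, thyroxine-binding globulin, which lies on another chromosome in the mouse. It had 1235, 783 and 596 in KO livers against 273, 190 and 493 in WT livers, with no overlap (log2 difference 1.49, limma adjusted p = 0.0829). It passed without WT replicate 3 (1.86, limma adjusted p = 0.0144) and with DESeq2 (1.46, DESeq2 adjusted p = 0.0069), in a range of 3.46e-05 to 0.281. These 2 settings called 1666 and 1804 of the 16813 genes tested. EU RNA of Serpina7 was higher in KO as well, with 434 reads in KO and 264 in WT (1.69, interval 1.47 to 1.92). Serpina3m differed by -0.64 (limma adjusted p = 0.436). The other 9, Serpina1f, Serpina3a, Serpina3b, Serpina3c, Serpina3f, Serpina3g, Serpina3h, Serpina3i and Serpina3j, lay between -0.33 and 0.96 with overlapping groups, and Serpina16 was listed at 0 in all 6 mRNA libraries.

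**Figure D4:**
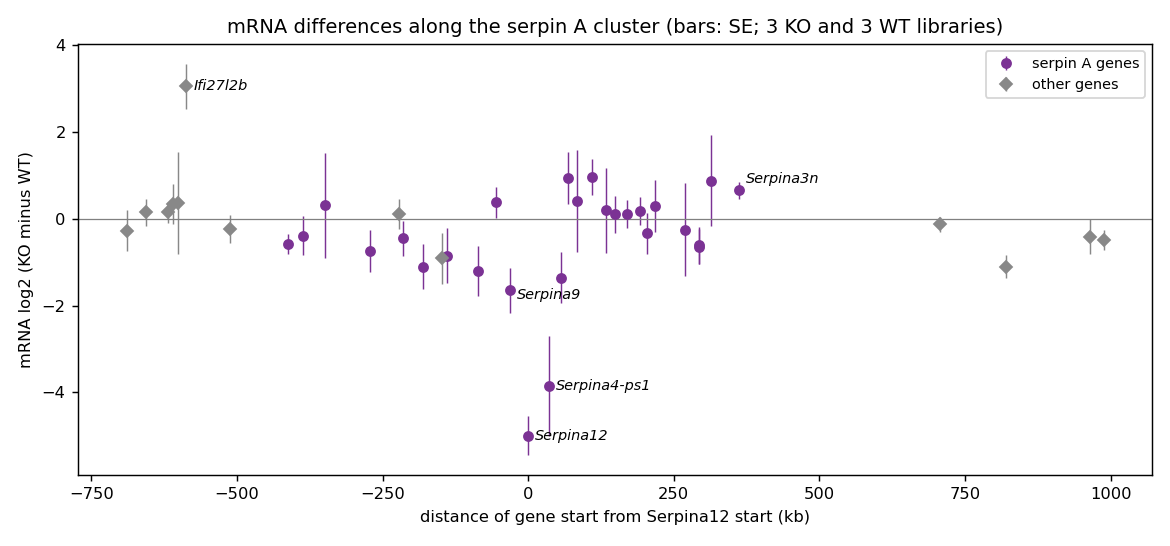
Log2 difference of mRNA, KO minus WT, for the 40 tested genes within 1 Mb of Serpina12, by distance of the gene start in kb, with SE bars, serpin A genes as circles and other genes as diamonds. Serpina12 at -5.00 and Serpina4-ps1 at -3.86 are the lowest points, and Ifi27l2b at 3.06 the highest.

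The proteases and partners of these serpins were mostly without a limma call, which 2.71% of all genes had. Of 18 listed, 17 had a row, 13 were tested and 1 passed: Kng1, which encodes kininogen, the source of kinins, fell 2.18-fold to 17035, 17961 and 19657 in KO livers, against 37334, 37458 and 44426 in WT livers (limma adjusted p = 0.031). Its call was lost whenever a library other than WT replicate 3 was left out, with limma adjusted p between 0.0595 and 0.173. The median of the 13 was -0.32. Klk7, kallikrein 7, named here for its role as the target of vaspin, had 2, 1 and 3 in KO livers against 4, 10 and 5 in WT livers, too few to test.

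Over all genes tested limma called 2.71%, edgeR 2.86% and DESeq2 10.7%, and 20.0% had an unadjusted limma p under 0.05. The 10 hepatocyte markers were abundant in both groups. Of them 0 passed by limma or edgeR, 1 had an unadjusted limma p under 0.05 and DESeq2 called 1. The median was -0.13 in mRNA, -0.11 in EU and -0.13 in Br. Their summed level was 2145213 to 2403497 in KO and 2137530 to 3430075 in WT. Of 8 macrophage markers 1, Csf1r, passed by limma, 7 had an unadjusted limma p under 0.05, edgeR called 1 and DESeq2 called 5. Their median was 1.28, and they summed to 8026 to 16834 in KO and 4975 to 6872 in WT. Of 8 stellate cell and fibroblast markers 1, Pdgfrb, passed by limma, 5 had an unadjusted limma p under 0.05, edgeR called 1 and DESeq2 called 2. Their median was 0.72, and they summed to 6135 to 7596 in KO and 3302 to 4663 in WT. Of 8 adipocyte markers 5, Adipoq, Lep, Plin1, Cfd and Retn, had a mean under 10, and Adipoq had 3, 1 and 10 in KO against 21, 4 and 3 in WT. The 3 that were tested, Cidec (1.01), Lipe (0.21) and Pnpla2 (0.52, all KO above all WT), did not pass by limma, edgeR or DESeq2, and 1 had an unadjusted limma p under 0.05. The 8 summed to 3377 to 4360 in KO and 2686 to 2984 in WT. The part of these cells in the values of the members was not tested.

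The genes whose mRNA profile was most like that of Serpina12, by root mean square distance between centred log2 profiles over the 6 libraries, were Rps15a-ps8 (0.44), Ifi202b (0.46), Crym (0.61), Erp27 (0.69) and Elf5 (0.71). Serpina12 was chosen for its difference, so a search by its profile returns genes that are low in KO. Rps15a-ps8 had 3, 5 and 6 in KO livers against 192, 141 and 237 in WT livers, and 0 reads in EU and Br. Ifi202b had 1, 1 and 4 in KO against 83, 41 and 48 in WT. Erp27 had 2, 1 and 3 in KO against 55, 68 and 125 in WT. Crym, which encodes a thyroid hormone-binding protein, had 17, 24 and 23 in KO livers against 467, 371 and 460 in WT livers. Elf5, an ETS family transcription factor, had 1, 5 and 3 in KO against 76, 49 and 53 in WT, with an EU ratio above the median gene (1.67) and a Br ratio below it (-1.32). With a pseudocount of 10 the log2 differences were -3.75 for Rps15a-ps8, -2.45 for Ifi202b, -3.82 for Crym, -2.88 for Erp27 and -2.41 for Elf5. With a pseudocount of 1 they were -5.08, -4.36, -4.29, -4.77 and -4.03. Serpina12 moved less, from -5.00 to -4.86. The distances thus depend on the pseudocount. For the other members the nearest profile was that of 9530056K15Rik for Serpina1a (0.22), 9030622O22Rik for Serpina1b (0.04), Tcim for Serpina1c (0.14), Slc43a1 for Serpina1d (0.15), Ptp4a1 for Serpina1e (0.16), Sdr9c7 for Serpina3k (0.12), Bcas3 for Serpina3n (0.05), Gm7211 for Serpina6 (0.15) and Rab20 for Serpina10 (0.05). No member was the nearest profile of another.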

How the data were processed

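RNA of mouse liver was analysed in 10 libraries grouped by their titles. Per the submitters' processing notes the authors used TopHat2, Bowtie2, Cufflinks, DESeq and genome mm9. How reads were assigned to genes was not given in the sources used here. In the mRNA tables, the deposited values are a score: read numbers the authors normalised with DESeq, per the submitters' processing notes, and rounded. The deposited nascent RNA files hold counts per gene. All Br values are even numbers and were divided by 2 before use. The authors also deposited RPKM, used in an alternative only. edgeR was planned for raw counts, and limma-trend 3.58.1 in R 4.3.3 was used instead because the values are scaled. It ran on log2(value + 1) over 16813 genes with at least 10 in at least 3 libraries, with Benjamini-Hochberg adjustment over all, two-sided, called under 0.05. Fold changes are on this scale. The fit was also run on simulated data with known changes. Those data held no outlying library such as WT replicate 3, so they do not show how the calls fare with such a library.

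Nascent ratios were centred on the median gene with at least 20 reads, with exact (Clopper-Pearson) 95% intervals. Symbols came from GENCODE M21, which gave 32860 of 37583 IDs a symbol, and promoters from RefSeq (GRCm38.p6), where 7 of the 10 members matched. The members and gene lists were chosen with earlier results of these data known. Named were all members, called members of the lists, other serpin A genes, genes within 1 Mb, and the nearest profiles. Klk7 and the adipocyte markers were named for their roles. The list of transcription factors is not reported here. Alternatives were other pseudocounts, filters and scalings, a replicate block, array weights, edgeR 4.0.16 and DESeq2 1.42.0 on reads re-estimated from the rounding step (approximate), and each library left out. No pair of mRNA libraries was identical.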

Additional observations from a re-analysis of the deposited data

How the results depend on the processing

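The mRNA difference of Serpina12 kept its sign and size under every alternative run (-5.53 to -4.51). Of the 16813 genes tested 455 were called (227 higher and 228 lower in KO). The number was 1014 (500 and 514) with a replicate block, 8410 (4250 and 4160) with array weights and 1804 (883 and 921) with DESeq2. TMM scaling gave 294 higher and 177 lower and moved the median gene by 0.09. With 1 library left out the calls ran from 28 to 1666, 13 to 797 higher and 15 to 869 lower. Members other than Serpina12 called were 1 with the block (Serpina1e, limma adjusted p = 0.0486, range 0.00717 to 0.644), 2 with array weights (Serpina1e and Serpina3n), 1 with DESeq2 (Serpina3n) and 0 to 1 with a library left out. Genes called in the other lists, 8, were 17 with the block, 63 with array weights, 25 with DESeq2 and 0 to 17 with a library left out. Neighbours called, 1, were 2 with no filter, 2 with median gene scaling, 6 with the block, 12 with array weights, 4 with DESeq2 and 0 to 3 with a library left out. Serpina6 turned to 0.37 with array weights and 0.14 without WT replicate 3, the highest of -0.73 to 0.14 with a library left out. The causes were not tested. Order per kilobase kept 6 of 10 places in KO and 6 of 10 in WT with the longest transcript as length. In nascent RNA the counts of members at least 2-fold lower held under every alternative run. Whether replicate numbers pair the samples cannot be told from 3 libraries per group. Deviations of same-numbered libraries correlated at 0.409, -0.242 and 0.198, and those of different-numbered libraries at -0.395 to 0.27. The 31 EU and 79 Br reads of Serpina12 over both groups limit what its nascent RNA can show.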

Other observations

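Serpins of other clades were mostly without a limma call, which 2.71% of all genes had. Of 13 tested, Serpinh1, which encodes the collagen chaperone HSP47, rose 2.27-fold to 518, 425 and 351 in KO livers, against 213, 185 and 166 in WT livers (limma adjusted p = 0.0359), and 12 did not pass. Without 1 library other than WT replicate 3 the limma adjusted p of Serpinh1 was 0.0522 to 0.187. Its EU RNA was higher in KO with 413 reads, against 27 in WT, and its Br RNA lower with 56 reads, against 107 in WT. The median of the list was 0.35.

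Acute phase genes, which hepatocytes switch on in inflammation together with Serpina3n, showed 2 limma calls among 18, beside 2.71% of all genes. Their median was 0.18. Lcn2 (lipocalin 2) rose 11.3-fold to 1572, 845 and 405 in KO livers, against 103, 80 and 44 in WT livers (limma adjusted p = 0.0168). Lbp (lipopolysaccharide-binding protein) rose 2.16-fold to 2535, 2010 and 2883, against 1364, 1027 and 1036 in WT livers (limma adjusted p = 0.0381). Lcn2 lost its call without WT replicate 2, KO replicate 1 or KO replicate 2 (limma adjusted p = 0.0521 to 0.0908), and Lbp without any library other than WT replicate 3 (0.0561 to 0.154). In EU the median of the 18 was -0.80, and 15 of them lay below the median gene. Both called genes were lower there, as Serpina3n was. Lcn2 was at -3.76, from 7 reads in KO and 187 in WT (interval -5.10 to -2.69), and Lbp at -1.11. Of 15 genes of cytokine, growth hormone and glucocorticoid signalling 0 passed by limma or edgeR. An unadjusted limma p under 0.05 was found for 1, beside 20.0% of all genes, and DESeq2 called 1, beside 10.7%. A lower fitted value in KO was found for 13, beside 49.8% of all genes, and the median was -0.29. Of 6 cholangiocyte markers (median 0.22) 5 did not pass by limma and 1, Spp1 (osteopontin), did, beside 2.71% of all genes. Spp1 rose 3.60-fold (limma adjusted p = 0.0285). Its call was lost without WT replicate 1, WT replicate 2, KO replicate 1 or KO replicate 2 (0.0651 to 0.153). Of 8 endothelial markers (median 0.42) 0 were called by limma or edgeR. An unadjusted limma p under 0.05 was found for 4 of the 8, beside 20.0% of all genes. DESeq2 called 2 of the 8, beside 10.7% of all genes. Lymphocyte markers (7, median 0.25) had 0 on each of these counts, and 7 of 8 pancreatic acinar markers had a mean under 10. Csf1r and Pdgfrb lost their calls without WT replicate 2, among others (limma adjusted p = 0.0956 and 0.104).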
